A study of Mus musculus with 16 samples.

Results

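Transcripts of 10 genes for inflammatory cytokines and their receptors were followed through RNA-sequencing libraries of mouse bone marrow-derived macrophages. The genes were chosen by name, as a family, with earlier results of these data known. The family holds the cytokines Tnf, Il1b, Il18 and Il10, the interleukin-1 receptor antagonist Il1rn, and the receptors Tnfrsf1a, Tnfrsf1b, Il1r2, Il10ra and Il6ra. They are 10 of the 54532 gene identifiers in the deposited tables. Of these 10, 8 passed a filter on low values and were tested, while Il1b and Il1r2 did not pass it and are described by their values. The study, by its title, asked how the forkhead transcription factor FOXO3 bears on signalling by the glucocorticoid receptor. Cells came from mice of the FVB/N strain, either wild type or labelled FOXO3-/-. Marrow from the leg bones was grown for 5 to 7 days with 30% L929 conditioned medium, a fibroblast supernatant that supplies macrophage growth factor. Each genotype then received vehicle (DMSO) or dexamethasone at 100 nM for 24 h. Dexamethasone is a synthetic glucocorticoid that activates this receptor. The design gave 4 groups of 4 libraries. No inflammatory stimulus is given in the labels. The age and sex of the mice, the part of Foxo3 that was removed and whether the removal was confined to some cells are not stated in the labels.

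Tumour necrosis factor and interleukin-1β are the early inflammatory cytokines of macrophages. TNF acts through the widely expressed receptor TNFR1 (Tnfrsf1a), which carries a death domain, and through TNFR2 (Tnfrsf1b), which lacks one and is found mainly on blood and endothelial cells. Interleukin-1β and interleukin-18 are made as precursors that caspase-1 cleaves in the inflammasome. Interleukin-1 is held back by the receptor antagonist Il1rn, which occupies its receptor without signalling, and by the decoy receptor Il1r2. Interleukin-10 signals through Il10ra and STAT3 and restrains the macrophage's own inflammatory output. Il6ra binds interleukin-6 and signals through gp130 (Il6st). Glucocorticoids are known to lower many inflammatory transcripts in macrophages.

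Values are FPKM, which divide the fragments of a gene by its exon length and by the library's depth, so levels of different genes can be set side by side. The reads on genes recovered from them numbered 16886745 to 20584573 per library. The receptor target Fkbp5 lay between 0.981 and 1.44 FPKM in all vehicle libraries and between 72.7 and 114 FPKM in all dexamethasone libraries. Foxo3, counted over the whole gene, did not separate the genotypes: 24.7 against 23.8 FPKM in vehicle and 23.2 against 24.5 FPKM under dexamethasone, with two-sided exact permutation p = 0.371 and 0.171, where the smallest possible is 0.0286. The genotype labels were thus not checked by this gene, and each genotype is called by its label ("knockout-labelled"). The 10 macrophage markers were all present, with a summed level of 10705 to 17155 FPKM over the libraries. None of the 7 dendritic, 5 mast cell or basophil, 7 lymphocyte and 6 erythroid markers reached 1 FPKM. Of the 11 neutrophil markers, 3 reached 1 FPKM in wild-type vehicle and 2 in each other group, while Ly6g was at 0 in all libraries. The 11 summed to 8.94 to 33.1 FPKM, most of it Csf3r. The 10 stromal markers summed to 29.7 to 554 FPKM in wild-type vehicle, 67.1 to 1124 in wild-type dexamethasone, 2.87 to 389 in knockout-labelled vehicle and 6.47 to 93.3 in knockout-labelled dexamethasone libraries. By the collagen gene Col1a1, 3 libraries stood apart from their groups: wild-type vehicle replicate 3 (6.77 against 124 to 174 FPKM), wild-type dexamethasone replicate 4 (19.1 against 159 to 356) and knockout-labelled vehicle replicate 4 (95.8 against 0.395 to 4.76). For the 8 tested genes, results in which these libraries stood out are given with and without them. Knockout-labelled dexamethasone replicates 1 to 4 also spread in Col1a1, at 1.18, 1.2, 15 and 25.5 FPKM, and were all kept in that setting. In bulk RNA, fewer cells of a type and less RNA per cell cannot be told apart. The labels number the replicates without tying them to animals or cultures. The p-values thus reflect a spread between libraries, and whether it is a spread between animals is not known.

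In vehicle-treated wild-type cells the receptors Tnfrsf1b, Tnfrsf1a and Il10ra were the most abundant of the 10 transcripts and the receptor Il1r2 the least. Mean levels in wild-type vehicle libraries ran from Tnfrsf1b at 216 ± 17.2 FPKM (SD, n = 4), through Tnfrsf1a at 82.7 ± 5.81 and Il10ra at 55.4 ± 3.56, to Il1rn at 17.1 ± 7.15 and Il6ra at 15.1 ± 1.81. Below these came Tnf at 6.37 ± 0.929, Il18 at 4.63 ± 0.646, Il10 at 1.98 ± 0.724, Il1b at 0.692 ± 0.391 and the decoy receptor Il1r2 at 0.0671 ± 0.0557. In this order the ranges of Il1rn and Il6ra overlapped, as did those of Tnf and Il18. The 3 most abundant receptors kept their places in all 4 groups, although in wild-type dexamethasone libraries the ranges of Il10ra and Il1rn overlapped. Lower down the order changed: with dexamethasone, Tnf dropped below Il18 in both genotypes, and in knockout-labelled cells Il10 lay next to Il18 in vehicle and above Tnf under dexamethasone.

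**Figure D1:**
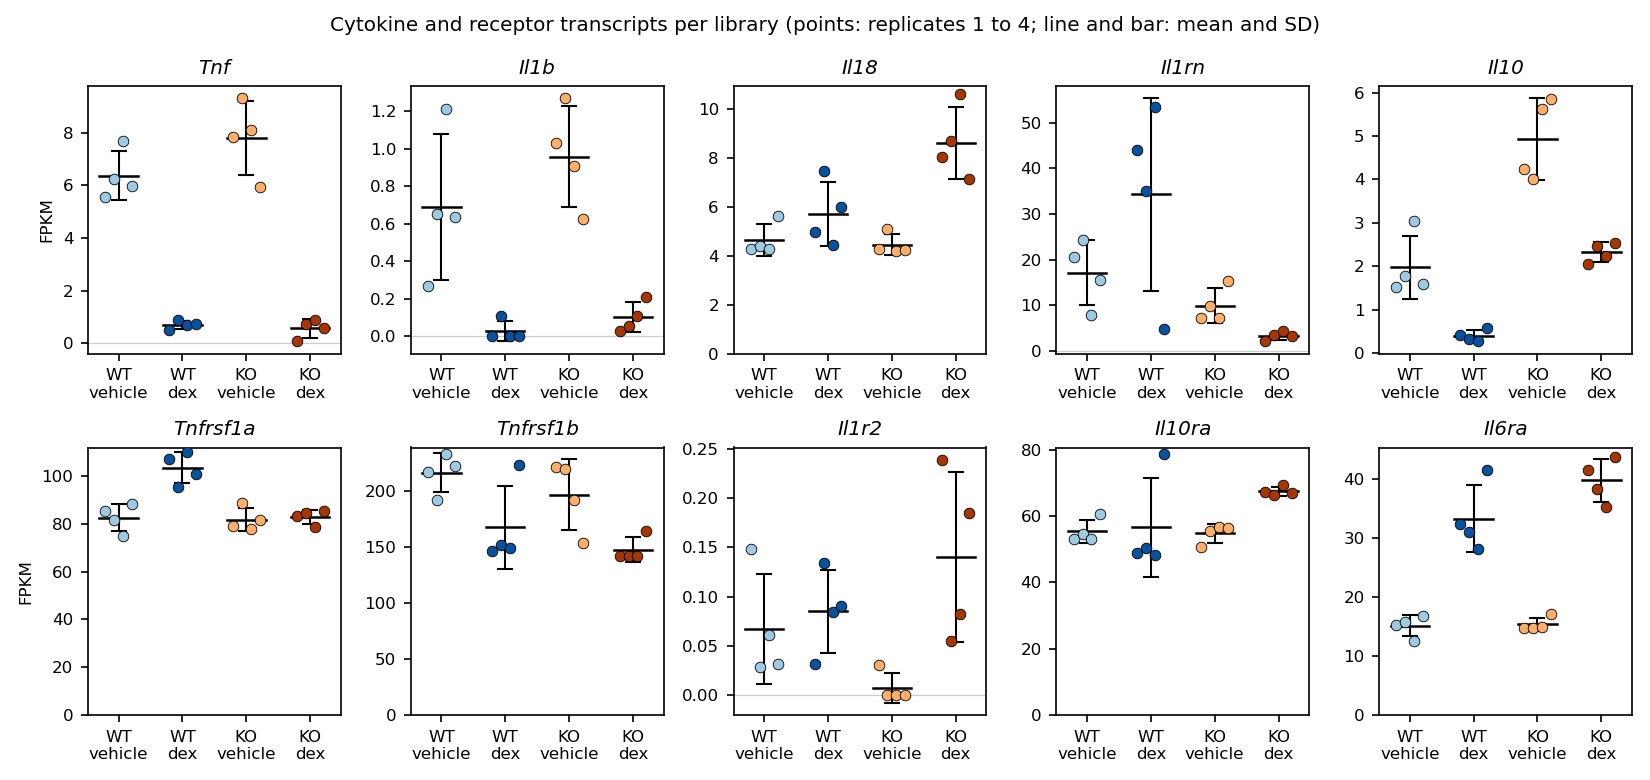
FPKM of the 10 genes in each of the 16 libraries, with 1 panel per gene and its own axis; points are replicates 1 to 4 from left to right within a group, and the line and bar give the mean and SD. Tnf is low in all 8 dexamethasone libraries, Il10 is higher in knockout-labelled libraries within each treatment, and Il1rn varies widely in wild-type dexamethasone libraries, from 4.69 to 53.4 FPKM.

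With dexamethasone in wild-type cells, Il6ra and Tnfrsf1a rose and Tnf, Il10 and Tnfrsf1b fell, 5 of the 8 tested genes. Of all 11654 tested genes, 30.1% passed the same test, 11.9% higher and 18.2% lower. In knockout-labelled cells Il6ra and Il18 rose and Tnf, Il10 and Tnfrsf1b fell, against a background of 39.1% (15.0% higher and 24.1% lower). Between the genotypes in vehicle, Il10 was the 1 gene that passed, higher in knockout-labelled cells, where the background was 4.68% (3.37% higher and 1.30% lower). Under dexamethasone Il10 and Il18 were higher and Il1rn and Tnfrsf1a lower in knockout-labelled cells, where the background was 26.7% (14.3% higher and 12.4% lower). None of the 8 passed the test of whether the response to dexamethasone differed between genotypes (limma), which 0.129% of all genes passed. Before adjustment Il1rn, Il18 and Tnfrsf1a were under 0.05 in that last test. The median log2 difference of the 8 genes was 0.12 in wild type and -0.19 in knockout-labelled cells with dexamethasone, beside -0.02 and -0.05 over all tested genes. Knockout-labelled minus wild type, it was -0.01 in vehicle and 0.06 under dexamethasone, beside 0.04 and 0.03. All of these are limma tests on log2(FPKM + 1) with Benjamini-Hochberg adjustment over all tested genes at 0.05, a scale that understates the change of low genes.

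**Figure D2:**
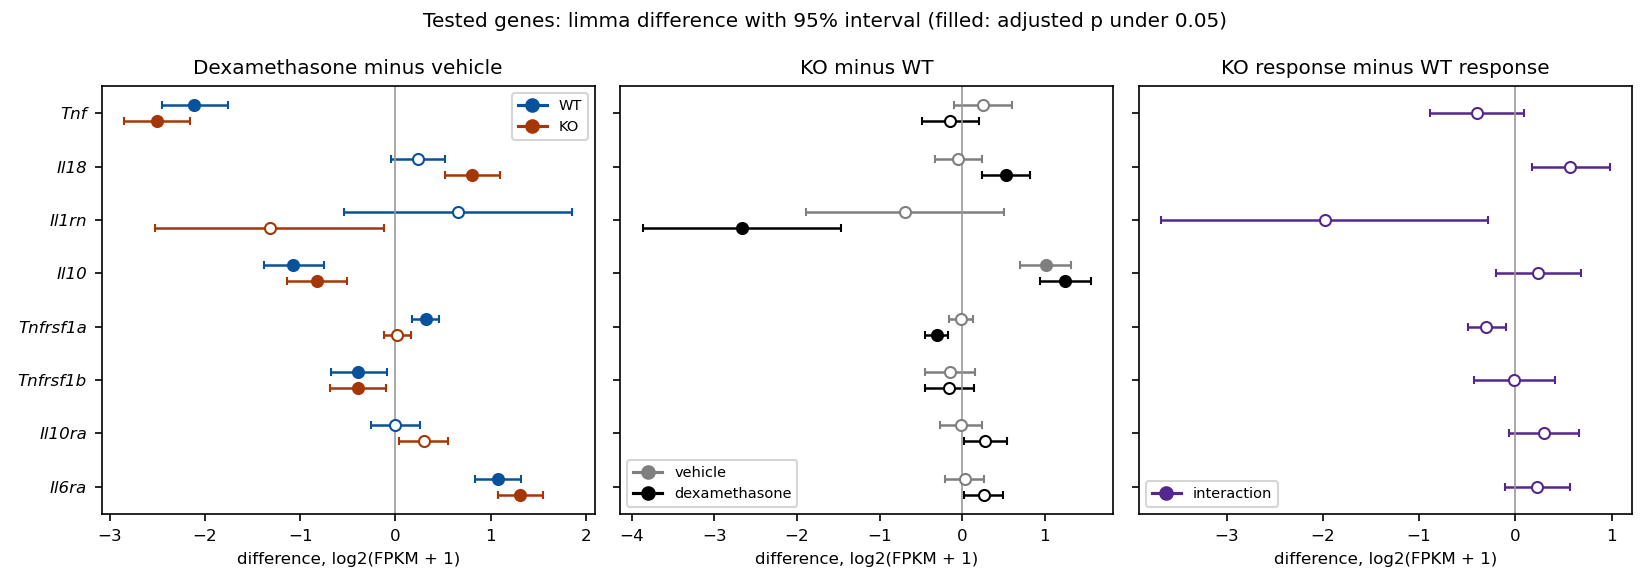
Differences on the log2(FPKM + 1) scale with 95% intervals for the 8 tested genes: dexamethasone minus vehicle in each genotype (left), knockout-labelled minus wild type in each treatment (middle) and the knockout-labelled response minus the wild-type response (right). Filled points passed the adjusted threshold; Tnf lies farthest to the left in the left panel, Il10 is to the right of 0 for both treatments in the middle panel, and no point is filled in the right panel.

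The promoters of 3 genes are shown because their transcripts rose or fell with dexamethasone: Tnf, the largest fall on the log2 scale among the 8 tested genes, Il6ra, the largest rise among them, and Il18, which rose in knockout-labelled cells. Each is the 250 bases before the RefSeq transcription start (GRCm38.p6), written 5′ to 3′ on the strand of the gene. The windows lie at chr17:35202008-35202257 on the minus strand for Tnf, chr3:89913197-89913446 on the minus strand for Il6ra and chr9:50554450-50554699 on the plus strand for Il18. Capitals mark a match to a searched motif.
Tnf: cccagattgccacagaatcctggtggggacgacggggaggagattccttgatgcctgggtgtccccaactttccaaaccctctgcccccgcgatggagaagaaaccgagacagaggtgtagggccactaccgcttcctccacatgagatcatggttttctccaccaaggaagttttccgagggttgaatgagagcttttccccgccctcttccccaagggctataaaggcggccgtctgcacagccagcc
Il6ra: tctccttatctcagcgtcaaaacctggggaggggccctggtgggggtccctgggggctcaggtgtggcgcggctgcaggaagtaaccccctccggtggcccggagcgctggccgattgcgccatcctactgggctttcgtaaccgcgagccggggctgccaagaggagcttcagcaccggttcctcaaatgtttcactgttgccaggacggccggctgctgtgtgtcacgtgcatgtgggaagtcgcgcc
Il18: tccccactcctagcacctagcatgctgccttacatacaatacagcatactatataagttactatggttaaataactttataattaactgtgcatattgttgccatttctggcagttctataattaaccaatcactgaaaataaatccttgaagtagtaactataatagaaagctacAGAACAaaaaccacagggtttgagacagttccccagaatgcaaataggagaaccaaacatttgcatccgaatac
The motifs, searched on both strands, were AGAACA (a short motif of the glucocorticoid receptor), GGGNNTTTC (a kappa B motif) and GTAAACA (a forkhead motif). Windows were on hand for 8 of the 10 genes, 10 in all since Il1rn has 3 start sites. The Il18 window holds AGAACA on the plus strand at -74 to -69 from the start, and the windows of Tnf and Il6ra hold none of the letters searched. The other match was in the window of the third start site of Il1rn, a kappa B match at -51 to -43. Of 32851 mouse promoters of this length, 16.1% hold AGAACA, 3.72% the kappa B motif and 3.17% the forkhead motif. A match of letters is a description of the window and not a binding site.

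Tnf (ENSMUSG00000024401, chromosome 17, 35199381 to 35202007, minus strand), the founding cytokine of its family, fell with dexamethasone in every library of both genotypes. Wild-type vehicle replicates 1 to 4 held 5.57, 6.23, 7.7 and 5.97 FPKM, and wild-type dexamethasone replicates held 0.519, 0.874, 0.688 and 0.738 FPKM. The highest treated library lay far below the lowest untreated one. Knockout-labelled vehicle replicates held 7.83, 9.32, 8.12 and 5.94 FPKM, and knockout-labelled dexamethasone replicates 0.0697, 0.732, 0.897 and 0.584 FPKM. The first of these rested on 2 reads, and the other 15 libraries held 14 to 253 reads of Tnf. Group means were 9.03-fold lower with dexamethasone in wild type (6.37 ± 0.929 against 0.705 ± 0.147 FPKM) and 13.7-fold lower in knockout-labelled cells (7.8 ± 1.4 against 0.571 ± 0.358 FPKM). On the log2(FPKM + 1) scale Tnf fell by 2.11 ± 0.16 (SE) in wild type and by 2.50 ± 0.16 in knockout-labelled cells (limma adjusted p = 3.97e-07 and 5.04e-08). The genotypes themselves overlapped in both treatments: the difference, knockout-labelled minus wild type, was 0.25 in vehicle (95% interval -0.10 to 0.60, adjusted p = 0.377) and -0.15 under dexamethasone (-0.49 to 0.20, adjusted p = 0.53). The responses differed by -0.40 (-0.89 to 0.09, adjusted p = 0.529), which did not pass. Without the 3 libraries apart in Col1a1 the genotype difference was 0.44 in vehicle and -0.14 under dexamethasone (limma adjusted p = 0.0637 and 0.524). The responses then differed by -0.58 (adjusted p = 0.177), and none of these passed. The vehicle libraries then kept held 5.57 to 6.23 FPKM in wild type and 7.83 to 9.32 FPKM in knockout-labelled cells, without overlap.

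Il1b (ENSMUSG00000027398, chromosome 2, 129364570 to 129371139, minus strand), the gene of interleukin-1β, was near the detection limit in these cells and lower still with dexamethasone. Wild-type vehicle replicates held 9, 23, 40 and 20 reads (0.266, 0.651, 1.21 and 0.637 FPKM), and wild-type dexamethasone replicates 0, 4, 0 and 0 reads. Knockout-labelled vehicle replicates held 34, 40, 30 and 23 reads (1.03, 1.27, 0.906 and 0.624 FPKM), and knockout-labelled dexamethasone replicates 1, 2, 4 and 8 reads. Within each genotype no treated library reached the lowest untreated one. Tested without the filter on low values, Il1b fell by 0.69 ± 0.14 on the log2(FPKM + 1) scale in wild type and by 0.82 ± 0.14 in knockout-labelled cells (limma adjusted p = 0.00453 and 0.000949), while the genotypes did not separate in vehicle (adjusted p = 0.544) or under dexamethasone (0.722). Wild-type vehicle replicate 3 and knockout-labelled vehicle replicate 4 are apart in Col1a1. The other vehicle libraries held 0.266 to 0.651 FPKM in wild type and 0.906 to 1.27 FPKM in knockout-labelled cells. A test without those replicates was not run for Il1b. Exon bases of Il1b are shared with the antisense gene Il1bos, and the counting is not known to use strand, so reads of both cannot be told apart. The 11 neutrophil markers, genes of a cell that also makes Il1b, summed to 23.6 to 33.1 FPKM in vehicle and 8.94 to 15.9 FPKM in dexamethasone libraries. Most of that sum was Csf3r, the receptor of granulocyte colony-stimulating factor, while S100a8 averaged 1.12 to 2.13 FPKM over the groups and Ly6g was at 0, and the part of such cells in the Il1b values was not tested.

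Il18 (ENSMUSG00000039217, chromosome 9, 50554827 to 50581840, plus strand), a partner of Il1b in inflammasome processing, did not share its fall. Wild-type replicates held 4.26, 4.4, 4.27 and 5.6 FPKM in vehicle and 4.95, 7.44, 4.43 and 5.98 FPKM with dexamethasone, 2 overlapping groups. Knockout-labelled replicates held 4.28, 5.09, 4.19 and 4.22 FPKM in vehicle and 8.03, 8.7, 10.6 and 7.13 FPKM with dexamethasone, where each treated library exceeded each untreated one. The rise in knockout-labelled cells was 1.94-fold by group means, 0.81 ± 0.13 on the log2 scale (limma adjusted p = 0.000279), and the difference in wild type was 0.24 (-0.05 to 0.52, adjusted p = 0.208). The 2 responses differed by 0.57 (0.17 to 0.98), which did not pass (adjusted p = 0.26). Under dexamethasone Il18 was higher in knockout-labelled than in wild-type cells by 0.53 ± 0.13 (adjusted p = 0.0128), although wild-type replicate 2, at 7.44 FPKM, lay above the lowest knockout-labelled library. With the stromal marker score as a covariate this genotype difference was 0.49 and no longer passed (adjusted p = 0.094, the highest over 28 alternatives, of which the lowest was 0.000175).

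Il10 (ENSMUSG00000016529, chromosome 1, 131019845 to 131024974, plus strand), the anti-inflammatory cytokine, fell with dexamethasone in both genotypes and was higher in knockout-labelled cells in both treatments. Wild-type vehicle replicates held 1.51, 1.77, 3.05 and 1.58 FPKM, and wild-type dexamethasone replicates 0.418, 0.312, 0.287 and 0.572 FPKM. Knockout-labelled replicates held 4.25, 4.01, 5.63 and 5.85 FPKM in vehicle and 2.05, 2.47, 2.24 and 2.54 FPKM with dexamethasone. No library of one genotype overlapped the other genotype within a treatment, and knockout-labelled cells under dexamethasone reached the level of wild-type cells in vehicle. Reads ran from 7 to 13 per library in wild-type dexamethasone and from 34 to 148 in the other groups. Dexamethasone lowered Il10 4.97-fold by group means in wild type and 2.12-fold in knockout-labelled cells, which is -1.07 ± 0.15 and -0.82 ± 0.15 on the log2(FPKM + 1) scale (limma adjusted p = 8.07e-05 and 0.000479). Knockout-labelled cells held 2.5 times the wild-type mean in vehicle and 5.85 times under dexamethasone, 1.01 ± 0.15 and 1.25 ± 0.15 on the log2 scale (adjusted p = 0.00103 and 9.61e-05). The responses differed by 0.24 (-0.20 to 0.68, adjusted p = 0.679), which did not pass.

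The genotype difference of Il10 also passed with the stromal score as a covariate. It was then 0.91 in vehicle and 1.13 under dexamethasone (limma adjusted p = 0.00581 and 0.00146). Without the 3 libraries apart in Col1a1 it was 1.09 and 1.31 (adjusted p = 1.12e-05 and 8.65e-07). The wild-type libraries then kept held 124 to 356 FPKM of Col1a1 and the knockout-labelled ones 0.395 to 25.5. Genotype and stromal RNA cannot be told apart in that setting. Over 27 alternatives the vehicle value ran from 0.91 to 1.36 and that under dexamethasone from 1.13 to 2.57, with adjusted p of at most 0.029 and 0.00146. Within the vehicle groups, wild-type replicate 3, with little Col1a1, held the highest wild-type Il10, and knockout-labelled replicate 4, with much Col1a1, held the highest knockout-labelled Il10. The macrophage marker Adgre1 (F4/80) had an order of group means like that of Il10: 615 ± 118 and 279.7 ± 128 FPKM in wild type and 1282 ± 148 and 705 ± 60.7 FPKM in knockout-labelled cells, each in vehicle and with dexamethasone. Of the 10 macrophage markers, 3 had this order of means, Adgre1, Lyz2 and the integrin gene Itgam, which averaged 24.8 ± 9.8, 13.2 ± 5.91, 42.8 ± 5.93 and 25.7 ± 3.08 FPKM in the same sequence of groups. The mean in knockout-labelled cells was above that in wild type for 9 of the 10 in vehicle, all but Mertk, and for all 10 under dexamethasone. For Csf1r the vehicle means were 590.1 and 608 FPKM. The part of a different make-up of the macrophages in the Il10 values was not tested.

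Il1rn (ENSMUSG00000026981, chromosome 2, 24336853 to 24351494, plus strand), the receptor antagonist, was lower in knockout-labelled than in wild-type cells under dexamethasone, and it had the widest standard errors of the 8 tested genes. Wild-type replicates held 20.6, 24.4, 7.83 and 15.6 FPKM in vehicle and 44, 35.1, 53.4 and 4.69 FPKM with dexamethasone. In vehicle replicate 3 and in dexamethasone replicate 4, both low in Col1a1, Il1rn was also the lowest of its group. Knockout-labelled replicates held 7.19, 9.84, 7.21 and 15.3 FPKM in vehicle and 2.08, 3.45, 4.33 and 3.22 FPKM with dexamethasone. Vehicle replicate 4, high in Col1a1, held the most Il1rn of the knockout-labelled libraries. Under dexamethasone the genotype difference was -2.67 ± 0.56 (limma adjusted p = 0.005), with means of 34.3 ± 21.1 and 3.27 ± 0.923 FPKM and no overlap. In vehicle it was -0.69 (-1.89 to 0.51, adjusted p = 0.488). With dexamethasone the difference was 0.66 in wild type (-0.54 to 1.86, adjusted p = 0.409) and -1.32 in knockout-labelled cells (-2.52 to -0.12, adjusted p = 0.0774), and neither passed.

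**Figure D3:**
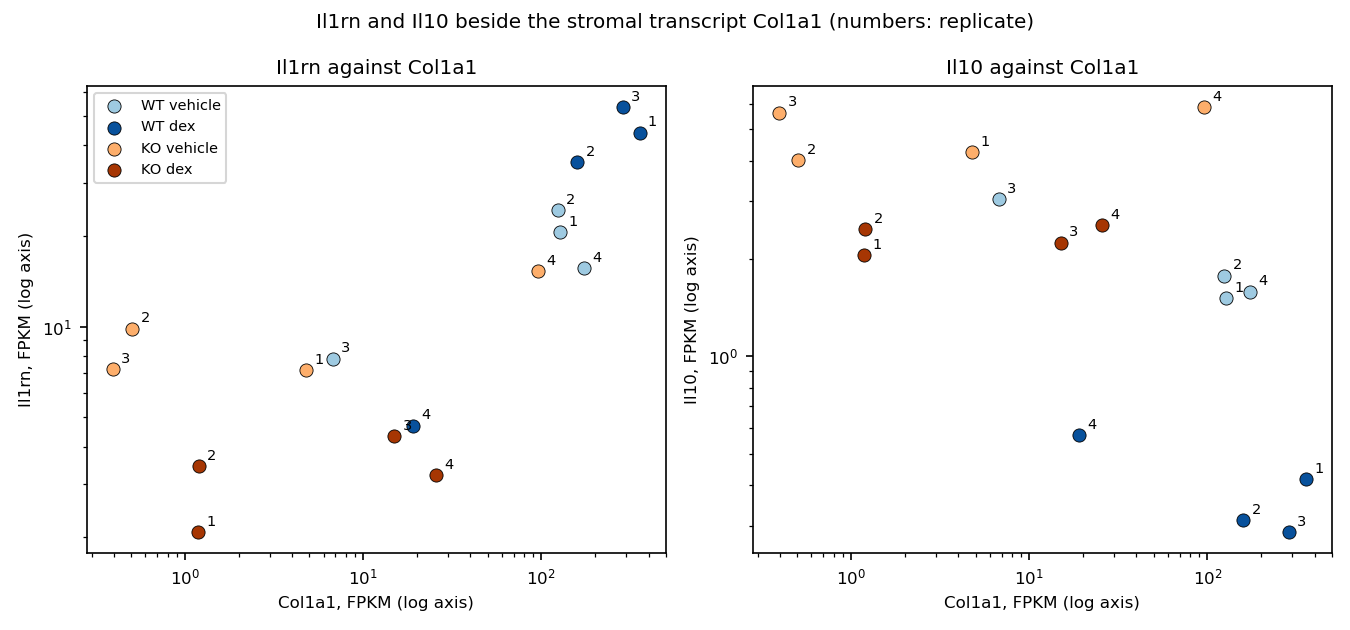
Il1rn (left) and Il10 (right) against Col1a1 in the 16 libraries, in FPKM on log axes; colours give the group and numbers the replicate. In the left panel wild-type dexamethasone replicate 4 (4.69 FPKM of Il1rn, 19.1 of Col1a1) lies among the knockout-labelled dexamethasone libraries, and in the right panel it stays with its own group at 0.572 FPKM of Il10.

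The responses of Il1rn to dexamethasone passed or not depending on these libraries and on the model, while its genotype difference under dexamethasone also passed without the 3 libraries (-3.41, adjusted p = 1.09e-07). With wild-type dexamethasone replicate 4 left out, Il1rn rose in wild type by 1.40 (adjusted p = 0.00554), fell in knockout-labelled cells by 1.32 (adjusted p = 0.00352), and the responses differed by -2.72 (adjusted p = 0.00652). Without all 3 libraries apart in Col1a1 these values were 1.10, -1.10 and -2.20 (adjusted p = 0.00164, 0.000615 and 0.00133), and Il1rn was then also lower in knockout-labelled vehicle cells (-1.21, adjusted p = 0.00077). With the stromal score as a covariate the wild-type response was 0.42 (adjusted p = 0.385), the knockout-labelled fall -1.29 (adjusted p = 0.00828), the genotype difference under dexamethasone -1.38 (adjusted p = 0.0785), and that in vehicle turned to 0.33 (adjusted p = 0.776). With all libraries kept, the fall in knockout-labelled cells also passed with only the 2 groups in the fit (-1.32, adjusted p = 0.00271) and with array weights (-1.05, adjusted p = 0.00601). Over all alternatives the adjusted p of the interaction ran from 0.00133 to 0.59. The libraries were chosen by Col1a1, with which Il1rn varied, so these values are not independent of the choice. Il1r1, the signalling receptor of interleukin-1, showed the same libraries apart: 4.4, 4.53, 0.328 and 3.06 FPKM in wild-type vehicle, 7.48, 6.62, 7.48 and 0.734 FPKM in wild-type dexamethasone, 0.721, 0.474, 0.371 and 2.32 FPKM in knockout-labelled vehicle, and 0.278 to 0.696 FPKM in knockout-labelled dexamethasone libraries. With all 16 libraries and no stromal covariate, its genotype difference under dexamethasone was -1.89 ± 0.52 (limma adjusted p = 0.0184). Wild-type dexamethasone replicate 4, at 0.734 FPKM, lay close to the highest knockout-labelled dexamethasone library, at 0.696 FPKM. How much of either transcript came from stromal cells was not tested.

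Set against Il1b, the antagonist was the more abundant transcript in every library where Il1b was above 0. The ratio of Il1rn to Il1b had a median of 30.9 in wild-type vehicle libraries (6.45 to 77.3), 7.87 in knockout-labelled vehicle libraries (6.95 to 24.5) and 51.1 in knockout-labelled dexamethasone libraries (15.2 to 69.6). In wild-type dexamethasone libraries it could be formed in 1 library, at 327, where Il1b rested on 4 reads. The vehicle ranges of both genotypes overlapped. Wild-type vehicle replicate 3 (6.45) and knockout-labelled vehicle replicate 4 (24.5) are the vehicle libraries apart in Col1a1. Without them the ratio ran from 24.5 to 77.3 in wild type and from 6.95 to 7.96 in knockout-labelled vehicle libraries, without overlap. Il1rn varied with Col1a1, by which these libraries were chosen.

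Il1r2 (ENSMUSG00000026073, chromosome 1, 40074079 to 40125231, plus strand), the decoy receptor of interleukin-1, was hardly detected. Its reads in replicates 1 to 4 were 5, 1, 2 and 1 in wild-type vehicle, 1, 5, 3 and 3 in wild-type dexamethasone, 1, 0, 0 and 0 in knockout-labelled vehicle, and 8, 2, 3 and 7 in knockout-labelled dexamethasone libraries. All knockout-labelled dexamethasone libraries held more than the knockout-labelled vehicle libraries, with 20 reads against 1 over the group. Tested without the filter on low values, the difference in knockout-labelled cells was 0.18 ± 0.05 (limma adjusted p = 0.0242) and that in wild type 0.02 ± 0.05 (adjusted p = 0.83). The responses differed by 0.15 (0.00 to 0.30, adjusted p = 0.637), so a genotype-dependent response of Il1r2 was not detectable at this depth.

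With dexamethasone in wild-type cells the less abundant TNF receptor transcript rose and the more abundant one fell. Tnfrsf1a (ENSMUSG00000030341, chromosome 6, 125349362 to 125362484, plus strand), the death-domain receptor, held 85.4, 81.6, 75.1 and 88.5 FPKM in wild-type vehicle and 107, 95.5, 110.2 and 101 FPKM in wild-type dexamethasone libraries. The wild-type groups did not overlap. Knockout-labelled libraries held 79, 88.9, 77.8 and 81.5 FPKM in vehicle and 83.4, 84.5, 78.6 and 85.4 FPKM with dexamethasone, ranges that overlapped each other and wild-type vehicle. The wild-type rise was 1.25-fold, 0.32 ± 0.066 on the log2 scale (limma adjusted p = 0.00221), and the knockout-labelled difference was 0.02 (-0.12 to 0.16, adjusted p = 0.828). Under quantile normalization the latter became 0.20 and passed (adjusted p = 0.0204), and with voom on recovered reads 0.19 (adjusted p = 0.0416). The highest adjusted p over its 28 alternatives was 0.99. Under dexamethasone Tnfrsf1a was lower in knockout-labelled cells (-0.31 ± 0.066, adjusted p = 0.00528), which became -0.26 and did not pass with the stromal covariate (adjusted p = 0.0704). The responses differed by -0.30 (-0.49 to -0.10, adjusted p = 0.237).

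Tnfrsf1b (ENSMUSG00000028599, chromosome 4, 145213463 to 145246870, minus strand), which encodes TNFR2, was the most abundant of the 10 transcripts and fell a little with dexamethasone. Wild-type replicates held 217, 192, 233 and 222 FPKM in vehicle and 146, 152, 149 and 223 FPKM with dexamethasone. Replicate 4, the library low in Col1a1, stayed at the untreated level while the other 3 lay below all vehicle libraries. Knockout-labelled replicates held 221, 219, 192 and 153 FPKM in vehicle and 142, 142, 142 and 164 FPKM with dexamethasone, where the highest treated library exceeded the lowest untreated one. The differences were -0.39 ± 0.14 in both genotypes (limma adjusted p = 0.0478 in wild type and 0.0347 in knockout-labelled cells). Without the 3 libraries apart in Col1a1 the differences were -0.49 and -0.51 (adjusted p = 0.000424 and 0.000117). Of 28 alternatives, 17 ended the wild-type call and 10 the knockout-labelled one. Over all 28 the adjusted p ran from 0.000424 to 0.128 in wild type and from 0.000107 to 0.453 in knockout-labelled cells. The ratio of Tnfrsf1b to Tnfrsf1a had a median of 2.52 in wild-type vehicle (2.35 to 3.1) and 1.48 in wild-type dexamethasone libraries (1.35 to 2.22), and of 2.47 (1.87 to 2.79) and 1.76 (1.68 to 1.92) in the knockout-labelled groups. The treated and untreated ranges of this ratio did not overlap in wild type. In knockout-labelled cells they overlapped through vehicle replicate 4 (1.87), the library high in Col1a1. The other knockout-labelled vehicle libraries held 2.47 to 2.79, above all treated knockout-labelled ones.

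Il6ra (ENSMUSG00000027947, chromosome 3, 89864059 to 89913196, minus strand), the binding chain of the interleukin-6 receptor, rose more than 2-fold with dexamethasone in both genotypes. Wild-type replicates held 15.3, 15.8, 12.6 and 16.8 FPKM in vehicle and 32.4, 31.1, 28.2 and 41.5 FPKM with dexamethasone. Knockout-labelled replicates held 14.8, 14.7, 14.9 and 17.1 FPKM in vehicle and 41.6, 38.4, 35.3 and 43.8 FPKM with dexamethasone. Every treated library exceeded every untreated one. By group means the rise was 2.2-fold in wild type and 2.59-fold in knockout-labelled cells, 1.08 ± 0.11 and 1.31 ± 0.11 on the log2 scale (limma adjusted p = 6.75e-06 and 6.04e-07). Under dexamethasone the genotype difference was 0.26 (0.02 to 0.50, adjusted p = 0.0976). It passed at 0.37 without wild-type dexamethasone replicate 4 (adjusted p = 0.0104), at 0.37 without the 3 libraries apart in Col1a1 (0.0014) and at 0.33 with array weights (0.0018), and over 28 alternatives the adjusted p ran from 0.0014 to 0.271. Exon bases of Il6ra are shared with the antisense gene Gm42809, whose reads cannot be told apart without a known strand. Its ligand gene Il6 had a highest group mean of 0.0161 FPKM.

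Il10ra (ENSMUSG00000032089, chromosome 9, 45253837 to 45269149, minus strand), the ligand-binding chain for interleukin-10, passed in none of the comparisons as first fitted, and its side of the threshold changed with the libraries, the scaling and the model. Wild-type replicates held 53.2, 54.6, 53.1 and 60.6 FPKM in vehicle and 48.7, 50.5, 48.3 and 78.8 FPKM with dexamethasone. Treated replicate 4 was the highest of all 16 libraries, while the other 3 lay below every vehicle library. Knockout-labelled replicates held 50.6, 55.5, 56.7 and 56.4 FPKM in vehicle and 67.1, 66.4, 69.3 and 67 FPKM with dexamethasone, without overlap. The difference was 0.00 (-0.26 to 0.26, limma adjusted p = 1) in wild type and 0.30 (0.04 to 0.55, adjusted p = 0.0651) in knockout-labelled cells. Without wild-type dexamethasone replicate 4 these were -0.17 (adjusted p = 0.041) and 0.30 (0.000615), and the responses differed by 0.46 (0.00792). Without the 3 libraries apart in Col1a1 they were -0.19 (0.0337) and 0.31 (0.000751), and the responses differed by 0.50 (0.00539). With all libraries the responses differed by 0.30 (-0.07 to 0.66, adjusted p = 0.528), and over 27 alternatives the adjusted p ran from 0.00539 to 0.779. With all 16 libraries kept, the difference in knockout-labelled cells passed at 0.33 with median-ratio scaling (adjusted p = 0.0325), 0.47 with quantile normalization (0.00517), 0.47 with voom on recovered reads (0.00421), 0.30 with only the 2 groups in the fit (0.00344), 0.29 with the stromal covariate (0.0454) and 0.34 with array weights (0.000421). In all, 8 of 28 alternatives called it, and the highest adjusted p among the 28 was 0.15.

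Genes that carry the signals of these cytokines moved in both directions. Of 20 genes of TNF signalling, all tested, 1 rose and 4 fell with dexamethasone in wild type, and 3 rose and 6 fell in knockout-labelled cells. These counts stand beside 30.1% and 39.1% of all tested genes. Birc3, a ubiquitin ligase that restrains cell death at the TNF receptor complex, rose from 10.1 ± 1.47 to 21.4 ± 5.55 FPKM in wild type (1.00 ± 0.16, limma adjusted p = 0.000246) and from 13.8 ± 2.4 to 32.5 ± 3.1 FPKM in knockout-labelled cells (1.18 ± 0.16, adjusted p = 3.59e-05). Adam17, the protease that releases TNF and its receptors from the cell surface, fell from 43.6 ± 6.75 to 27.5 ± 5.3 FPKM and from 58.4 ± 6.43 to 36.7 ± 3.66 FPKM (-0.66 ± 0.13 and -0.65 ± 0.13, adjusted p = 0.00173 and 0.00126). The adaptor gene Traf1 fell by 0.59 ± 0.11 in wild type (adjusted p = 0.000846), with -0.26 in knockout-labelled cells (adjusted p = 0.0713). Traf2, its partner, fell by 0.44 ± 0.10 in knockout-labelled cells (adjusted p = 0.00309), with -0.01 in wild type (adjusted p = 0.934). Between genotypes Traf1 was lower in knockout-labelled vehicle cells (-0.40 ± 0.11, adjusted p = 0.0457), the 1 gene called in that comparison. Under dexamethasone 5 were higher, among them Birc3 (0.61 ± 0.16, adjusted p = 0.0132) and the deubiquitinase Cyld (0.42 ± 0.09, adjusted p = 0.00661), and 1 lower. Over all tested genes the shares called between genotypes were 4.68% in vehicle and 26.7% under dexamethasone. The median difference of the list with dexamethasone was -0.11 in wild type and -0.05 in knockout-labelled cells.

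Of 19 genes of interleukin-1 and interleukin-18 processing and signalling, 15 were tested. With dexamethasone 1 rose and 4 fell in wild type, and 3 fell in knockout-labelled cells, beside the same 30.1% and 39.1% of all tested genes. Irak2, a kinase-family adaptor below the interleukin-1 receptor, fell from 11.3 ± 0.988 to 5.3 ± 0.878 FPKM in wild type (-0.97 ± 0.09, limma adjusted p = 2.87e-06) and from 12.9 ± 0.452 to 4.79 ± 0.478 FPKM in knockout-labelled cells (-1.26 ± 0.09, adjusted p = 1.48e-07). Pycard, the inflammasome adaptor ASC, fell by 0.92 ± 0.09 and 0.67 ± 0.09 (adjusted p = 5.35e-06 and 6.1e-05). Casp1, the protease that matures both cytokines, fell by 0.87 ± 0.24 in wild type (adjusted p = 0.0129), with -0.54 in knockout-labelled cells (adjusted p = 0.0867). Irak3, a negative regulator of the pathway, fell by 0.38 ± 0.07 in knockout-labelled cells (adjusted p = 0.000804), with 0.07 in wild type (adjusted p = 0.54). In vehicle 3 genes were higher in knockout-labelled cells, among them Irak3 (0.52 ± 0.07, adjusted p = 0.000792) and Pycard (0.42 ± 0.09, adjusted p = 0.017), and none lower. Under dexamethasone 4 were higher, among them Pycard (0.67 ± 0.09, adjusted p = 0.000298) and Irak4 (0.50 ± 0.09, adjusted p = 0.00243), and Il1r1 was the 1 that was lower. These genotype counts stand beside 4.68% of all tested genes in vehicle and 26.7% under dexamethasone.

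**Figure D4:**
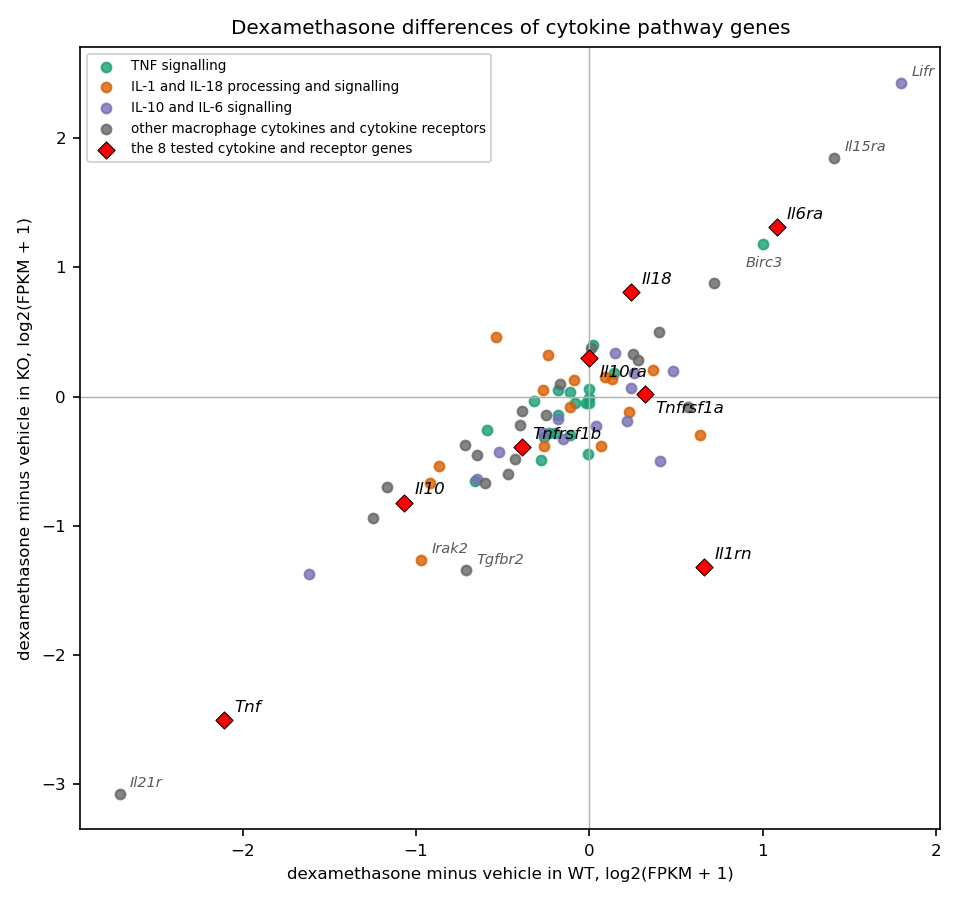
Dexamethasone minus vehicle on the log2(FPKM + 1) scale in wild type (horizontal axis) and in knockout-labelled cells (vertical axis), with the 8 tested genes as red diamonds and 4 lists of pathway genes as coloured points. Tnf and Il21r lie at the lower left and Lifr, Il15ra and Il6ra at the upper right, while Il1rn lies at the lower right (0.66 and -1.32, neither of which passed).

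Of 16 genes of interleukin-10 and interleukin-6 signalling, 14 were tested. With dexamethasone 4 rose and 3 fell in wild type, and 3 rose and 6 fell in knockout-labelled cells, where 30.1% and 39.1% of all tested genes were called. Lifr, the receptor of leukaemia inhibitory factor and a partner of gp130, rose from 2.52 ± 1.12 to 10.8 ± 1.19 FPKM and from 2.13 ± 1.16 to 15.2 ± 1.15 FPKM (1.80 ± 0.24 and 2.43 ± 0.24, limma adjusted p = 5.53e-05 and 2.41e-06). Osm, the gene of oncostatin M, rose by 0.48 ± 0.10 in wild type (adjusted p = 0.00171), and its difference in knockout-labelled cells was 0.20 (adjusted p = 0.121). Bcl3, a nuclear partner of NF-κB, fell by 0.52 ± 0.11 in wild type and by 0.43 ± 0.11 in knockout-labelled cells (adjusted p = 0.00253 and 0.00644). No gene of the list was called between genotypes in vehicle (limma), against 4.68% of all tested genes. Under dexamethasone 2 were higher and 4 lower in knockout-labelled cells, where 26.7% of all tested genes were called. The lower ones included Il6st, the gp130 chain with which Il6ra signals (-0.51 ± 0.12, adjusted p = 0.0102), and the phosphatase Ptpn11 (-0.28 ± 0.07, adjusted p = 0.0148). Il6st averaged 30.5 ± 6.09 FPKM (22.1 to 36) in wild-type and 20.8 ± 0.9 FPKM (20 to 21.9) in knockout-labelled dexamethasone libraries. The lowest wild-type library thus lay close to the knockout-labelled ones. The part of stromal RNA in these genotype differences was not tested.

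Of 28 other macrophage cytokines and cytokine receptors, 20 were tested. With dexamethasone 3 rose and 9 fell in wild type, and 5 rose and 8 fell in knockout-labelled cells, against 30.1% and 39.1% of all tested genes. Il21r, the receptor of interleukin-21, fell from 17 ± 4.25 to 1.71 ± 0.485 FPKM in wild type (-2.71 ± 0.26, limma adjusted p = 3.82e-06) and from 15.4 ± 8.4 to 0.818 ± 0.265 FPKM in knockout-labelled cells (-3.07 ± 0.26, adjusted p = 6.92e-07). Il15ra, which presents interleukin-15, rose by 1.41 ± 0.12 and 1.85 ± 0.12 (adjusted p = 1.36e-06 and 6.38e-08), and Ifngr1, the ligand-binding chain for interferon-γ, by 0.72 ± 0.07 and 0.88 ± 0.07 (adjusted p = 3.13e-06 and 2.66e-07). Tgfbr2, a receptor of transforming growth factor-β, fell from 67.4 ± 2.3 to 40.9 ± 4.97 FPKM in wild-type cells, and from 78.3 ± 3.82 to 30.2 ± 1.24 FPKM in knockout-labelled cells. In the latter the fall was -1.34 ± 0.07 (adjusted p = 1.1e-08), and the responses differed by -0.63 ± 0.10 (adjusted p = 0.0394), the 1 gene of the 4 lists to pass that test. No gene was called between genotypes in vehicle (limma), and under dexamethasone 6 were higher, among them Tnfrsf21, a death receptor (0.51 ± 0.11, adjusted p = 0.00688), and Tgfbr2 was lower (-0.42 ± 0.07, adjusted p = 0.00179). The shares of all tested genes called between genotypes were 4.68% in vehicle and 26.7% under dexamethasone.

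For each tested gene, the 2 named genes with the most similar profile over the 16 libraries were taken by Pearson's r of log2(FPKM + 1). Tnf was most like S1pr2 (r = 0.989) and Lipa (0.985), and Il6ra was most like Rnf169 (0.993) and Sik1 (0.989). Il10 was most like Clec4b1 (0.975) and Ikzf1 (0.963), and Il1rn was most like Plpp3 (0.976) and Gstm2 (0.974). Il18 was most like Ear2 and Dapp1 (both 0.9), Il10ra Bambi-ps1 (0.901) and Mif4gd (0.888), Tnfrsf1a Kdm4b (0.953) and Yipf3 (0.939), and Tnfrsf1b Csf2rb2 (0.945) and Plaur (0.94). These correlations describe 16 libraries that share 4 groups, and were picked as the highest among all tested genes.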

How the data were processed

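RNA was measured in 16 libraries. Each library has 1 table of FPKM values, as deposited by the authors. Bowtie2 2.2.3, TopHat2 2.0.12, HTSeq 0.6.1, DESeq2 and the builds GRCm38 and mm10 are named, per the submitters' processing notes; what each did, the strand setting and the annotation are not given in the sources used. GENCODE M21 (GRCm38) supplied names, positions and exon lengths and held 54495 of 54532 identifiers. Reads recovered from FPKM and exon length were whole within 0.05 reads for 96.5% of positive values, and for all values of the 10 genes. Every pair of libraries of the same group differed beyond sampling noise (chi-square per degree of freedom 6.84 to 98.92).

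Genes with at least 1 FPKM in 4 libraries (11654) were tested as log2(FPKM + 1) with limma 3.58.1 in R 4.3.3 (4 group means, intensity trend, two-sided, Benjamini-Hochberg adjusted within each of 5 comparisons, threshold 0.05). The steps were tested on simulated data. Foxo3 was compared by an exact permutation test. Python 3.11.15 served for the rest, with pandas 2.3.3, numpy 2.4.6, matplotlib 3.10.9 and scipy 1.17.1. Promoters are from RefSeq (GRCm38.p6), on hand for 8 of the 10 genes.

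The genes, lists and alternatives were chosen with earlier results of these data known. Named were the 10 genes, Foxo3 and Col1a1, of each pathway list up to 3 called genes per dexamethasone comparison and 2 per other comparison by smallest adjusted p, leading cell type markers, and 2 genes of the most similar profile per tested gene; Fkbp5, Il1r1, Il6, Csf3r, Ly6g, Itgam, Lyz2 and Mertk were added after their values were seen. A gene that the rule covers is not reported here. Alternatives covered pseudocount, filter, scaling, weights, groups in the fit, replicate block, stromal covariate, voom on recovered reads and libraries left out.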

Additional observations from a re-analysis of the deposited data

Results flagged for a closer look

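In 8 of 40 groups of 4 libraries, 1 library lay far from the other 3 by Dixon's test at the 95% level, where chance alone gives about 1 in 20 groups. That share holds for independent groups without tied values. The genes share libraries, and some groups hold ties at 0, so the 2 shares are not directly comparable. In wild-type dexamethasone replicate 4, the library low in Col1a1, both Il10ra (78.8 FPKM) and Tnfrsf1b (223 FPKM) were the high outliers. Tnfrsf1b was also high in 1 knockout-labelled dexamethasone library (164 FPKM against 142 in the others). Il18 was high in 1 wild-type vehicle library (5.6 FPKM) and in 1 knockout-labelled vehicle library (5.09 FPKM), and Il6ra in 1 knockout-labelled vehicle library (17.1 FPKM), replicate 4, which was high in Col1a1. Il1b in wild-type dexamethasone (0.107 FPKM, 4 reads against 0) and Il1r2 in knockout-labelled vehicle (0.0304 FPKM, 1 read against 0) were the other 2, and rest on few reads. In both the other 3 values were tied at 0, so any value above 0 would have been flagged. The part of stromal RNA in these values was not tested.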

How the results depend on the processing

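Of the tests of the 8 genes under 28 alternatives (27 for the interaction), 1038 kept their side of the threshold (24 of them, none called, with the other sign), 37 came to pass it with the same sign, 30 no longer passed and 2 came to pass it with the other sign. Those 2 are Il10ra in wild type with dexamethasone, -0.19 without the 3 libraries apart in Col1a1 and -0.17 without wild-type dexamethasone replicate 4 (0.06 without replicate 1). As first fitted this difference was 0.00 and not called, so no called direction was turned. The number of the 8 genes called between genotypes in vehicle was 1, and 0 with a filter of 5 FPKM (which leaves out Il10), 2 with array weights and 2 without the 3 libraries. Under dexamethasone it was 4, and 1 with the stromal covariate. For the interaction it was 0, and 5 with array weights, 3 without the 3 libraries, and 0 to 2 with 1 library left out, where 2 came without wild-type dexamethasone replicate 4. The cause was not tested. The calls of Tnf, Il10 and Il6ra with dexamethasone, and of Il10 between genotypes, held in every alternative that tested them.

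Over all tested genes, 545 were called between genotypes in vehicle, and 4840 with array weights, 3958 without the 3 libraries, 244 with only the 2 groups in the fit and 278 to 1623 with 1 library left out (1623 without wild-type vehicle replicate 3, 1285 without knockout-labelled vehicle replicate 4). Under dexamethasone 3114 were called, and 6388, 5158 and 970 with array weights, without the 3 libraries and with the stromal covariate, and 1517 to 4070 with 1 library left out. The interaction gave 15, and 1391, 725 and 122 in those settings, 6 with no filter or with voom, 1 with the replicate block and 2 to 330 with 1 library left out. Voom scaled each library by its summed reads on the tested genes, and not by the total that the FPKM imply. The part of this in the shifts that follow was not tested. Voom moved the median of all genes in knockout-labelled cells with dexamethasone from -0.055 to 0.119 and the split from 1753 higher and 2809 lower to 3290 and 1724 (quantile normalization 2059 and 1968); in wild type voom gave 2024 and 1581 against 1386 and 2122, and between genotypes 297 and 221 against 393 and 152 in vehicle (quantile normalization 270 and 168) and 1847 and 891 against 1672 and 1442 under dexamethasone.

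Same-numbered libraries showed no steady likeness: correlations of their deviations from the group means ran from -0.685 to 0.732, and 5 of 16 were highest with their own number. Each group mean rests on only 4 libraries. These values thus do not tell whether a number marks a shared animal or culture. With the replicate block 3 of the 40 calls of the 8 genes changed, Tnfrsf1b in both genotypes (adjusted p = 0.0841 and 0.0634) and Il6ra between genotypes under dexamethasone (0.0254). Depth limits Il1b and Il1r2, at 0 to 40 reads per library, and Tnf and Il10 under dexamethasone, at 2 to 66 reads.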
